A study of Mus musculus with 6 samples.

Results

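Gluconeogenesis and the control of glucokinase were followed through 9 genes of the mouse liver count table: Pck1, G6pc, Fbp1, Pcx, Slc37a4, Ppargc1a, Sds, Gckr and Pfkfb1. They were taken by symbol as the enzymes and the transporter of hepatic glucose output, their coactivator, and the genes that regulate glucokinase and its neighbouring step. The 9 genes stood among 55487 genes in the table, and all 9 were among the 14046 genes that had enough counts to be tested. The livers came from male wild-type C57BL/6J mice on a normal chow diet, collected at 17 weeks of age. Mice received by subcutaneous injection either GalNAc-siNC, a control siRNA, or GalNAc-siRnf10, an siRNA against Rnf10 (named GalNAc-siRnf10-2 in the paper), with 3 mice and 3 libraries in each group. Both siRNAs carried N-acetylgalactosamine (GalNAc), the ligand of the asialoglycoprotein receptor of hepatocytes, and Rnf10 encodes a RING-type E3 ubiquitin ligase. The comparison was made by the study to look at effects of the conjugate on other transcripts in healthy liver. The dose, the injection times, and the feeding state and time of day at collection are not given in the sources used here, and all 6 libraries carry the same batch label.

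Gluconeogenesis makes glucose in the liver from lactate, amino acids and glycerol when the diet supplies none. Pyruvate carboxylase (Pcx) and phosphoenolpyruvate carboxykinase (Pck1) carry pyruvate past the irreversible pyruvate kinase step, fructose-bisphosphatase (Fbp1) passes the phosphofructokinase step, and glucose-6-phosphatase (G6pc) releases free glucose after the glucose-6-phosphate transporter (Slc37a4) has brought its substrate into the endoplasmic reticulum. In the liver, transcription of several of these genes is raised by glucagon and glucocorticoids and lowered by insulin, and the coactivator PGC-1α (Ppargc1a) takes part in that response. Glucokinase catalyses the opposite reaction to glucose-6-phosphatase, and its regulatory protein (Gckr) holds it inactive in the nucleus when glucose is low.

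Total counts ranged from 26854377 to 33058645 per library, and 3 counts, used as the floor, corresponded to between 0.0907 and 0.112 CPM, the count scaled to a library of fixed size, for counting error only. Rnf10 was at 130, 153 and 136 CPM in GalNAc-siNC livers and at 58.6, 61.4 and 60.4 CPM in GalNAc-siRnf10 livers, a log2 fold change of -1.22 ± 0.07 (SE, adjusted p = 3.29e-09). Of all tested genes, 14.0% were called at an adjusted p under 0.05, 943 of them higher and 1022 lower, and with scaling by library totals alone the split was 747 to 1381. GalNAc-siNC mouse 1 stood apart from its group: its chi-square per gene against the other control mice was 30.8 and 30.1, compared with 10.3 between those 2 mice and 4.70 to 5.38 between the GalNAc-siRnf10-treated mice. Without it, 2864 genes were called instead of 1965. Hepatocyte transcripts made up more of the GalNAc-siRnf10 libraries: the 9 hepatocyte markers matched by symbol, of 10 listed, summed to between 63529 and 68557 CPM in GalNAc-siNC livers and between 91090 and 94072 CPM in GalNAc-siRnf10 livers, 5 of 9 were called higher, and albumin alone (Alb), which carried most of the sum, took 3.72% to 4.36% of counts in the first group and 5.93% to 6.08% in the second. Of the other hepatocyte markers, Apoa1 (0.08), Asgr1 (0.11), Apob (-0.11) and Asgr2 (-0.12, on the log2 scale) were not called. In bulk tissue, fewer cells of a type and less RNA per cell cannot be told apart. The part of these shifts in the results below was not tested. Kidney, the other gluconeogenic organ, left little trace: of 8 tubule markers, 3 had no count in any library, 4 had at most 3 counts, and Lrp2 was at 1.32 to 2.29 CPM.

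The promoters of the genes were read for sites of the factors that act on this pathway. A promoter in RefSeq (GRCm38.p6) was found for 8 of the 9 genes, all but Sds. The 250 bases before each start were searched on both strands for the half-site of the cAMP response element (TGACG, or CGTCA on the other strand), the full element TGACGTCA, which holds the half-site, the forkhead motif GTAAACA, the E-box CACGTG and the D-box TTATGTAA. The half-site stood before a start of 3 of the 8 genes, and in the promoters of 23.0% of the 27025 genes with one. The shares over all promoters, here and below, also count matches in the 50 bases after the start. They therefore come from a longer window than the matches of the 8 genes. The stretches below are shown because they are the matches found in these genes, with the matched letters in capitals and the position counted from the annotated start.
Pck1, at -90, chr2:173152973-173153002, plus strand: ctgccccttaCGTCAgaggcgagcctccgg
Ppargc1a, at -49, chr5:51567755-51567784, minus strand: tgccctcccaCGTCActgagctccagtgaa
Slc37a4, at -61 of one start and -214 of another, chr9:44396875-44396904, plus strand: acaggcaggaTGACGtctccatcccagggt
Slc37a4, at -82 of the start just named for -214, chr9:44397007-44397036, plus strand: gaaggaggggCGTCAgtgagggcgggacta
Pcx, E-box at -248, chr19:4510222-4510251, plus strand: ccCACGTGaggctttcaagaaaagagagta
The full element (1.79% of 32851 promoters), the forkhead motif (3.65%) and the D-box (0.938%) had no match before any of the 8 genes, and the E-box, present in 7.15% of promoters, was found only before Pcx. These matches are letters in a window and were not tested for binding. Among the genes with a half-site, Pck1 and Slc37a4 rose in the comparison below and Ppargc1a was not called. G6pc, which had no half-site, rose as well, and Sds rose without a promoter to search. The number of starts searched was 4 for Pfkfb1, 3 for Slc37a4, 2 for Pcx and 1 for each other gene with a promoter. Whether the half-site went with the rises was not tested.

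Of the 9 genes, 4 rose in GalNAc-siRnf10 livers, 1 fell and 4 did not pass the test. G6pc, Slc37a4, Pck1 and Sds rose by between 39.9% and 55.6%, Pcx fell by 16.0%, and Fbp1, Gckr, Pfkfb1 and Ppargc1a were not called. The background is 14.0% of all tested genes called, 6.71% higher and 7.28% lower. The groups did not overlap for 7 of the 9 genes, 6 higher and 1 lower, against 32.8% of all tested genes. The median log2 fold change was 0.21 over the 9 genes and 0.0022 over all tested genes. For each gene whose groups did not overlap the exact two-sided permutation test gave p = 0.1, the smallest that 3 mice against 3 allow, so the calls rest on the edgeR quasi-likelihood test adjusted over all genes.

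**Figure D1:**
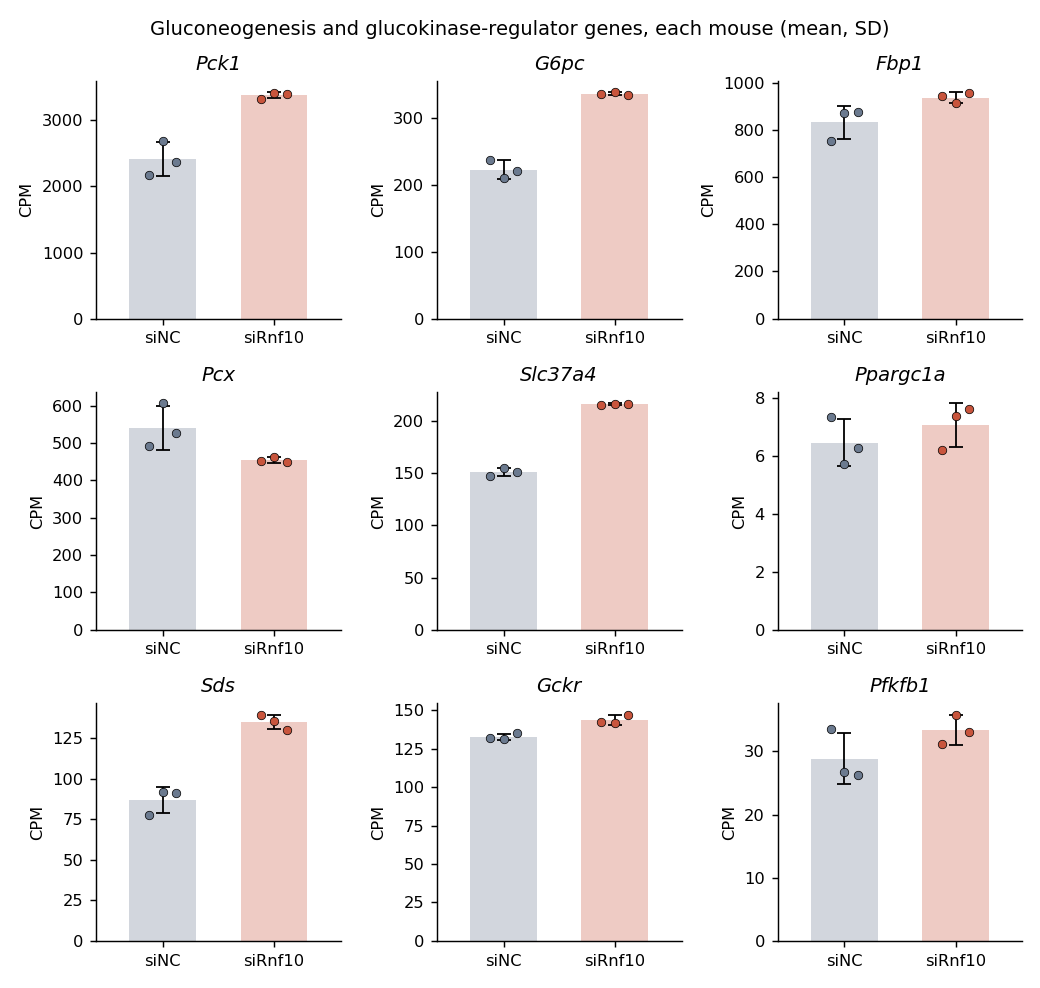
Level of each of the 9 genes in CPM (vertical axes from 0, different for each gene) in GalNAc-siNC (grey) and GalNAc-siRnf10 (red) livers; points are mice, bars the mean of 3 mice and error bars the SD. The groups are apart for Pck1, G6pc, Fbp1, Pcx, Slc37a4, Sds and Gckr, with Pcx the one gene that is lower, and they overlap for Ppargc1a and Pfkfb1.

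The pair that makes phosphoenolpyruvate moved in opposite directions. Exons were counted, here and below, after overlapping exons of a gene's transcripts were merged. Pck1 (ENSMUSG00000027513), at chr2:173153048-173159273 on the plus strand with 8 merged exons, encodes the cytosolic phosphoenolpyruvate carboxykinase. Its level was 2178, 2692 and 2373 CPM in the 3 control mice, given GalNAc-siNC, and 3326, 3410 and 3394 CPM in the 3 treated mice, given GalNAc-siRnf10. Every treated mouse was above every control mouse, and the control mice spread more widely than the treated mice. Pck1 rose from 2414 ± 259 to 3377 ± 44.9 CPM (mean ± SD, n = 3), a log2 fold change of 0.48 ± 0.06 (SE, 95% interval 0.35 to 0.62, adjusted p = 6.89e-05). Without GalNAc-siNC mouse 1, which was the lowest control for this gene, the change was 0.41 and was still called. Pcx (ENSMUSG00000024892), at chr19:4510472-4621752 on the plus strand with 25 merged exons, encodes the mitochondrial enzyme that makes oxaloacetate for Pck1. It was at 491, 606 and 526 CPM in the control mice and at 451, 463 and 449 CPM in the treated mice. The groups did not overlap, but the lowest control lay close to the highest treated mouse. Pcx fell from 541 ± 58.8 to 454 ± 7.83 CPM, a log2 fold change of -0.25 ± 0.07 (95% interval -0.39 to -0.11, adjusted p = 0.0186). The fall of Pcx was the least firm of the 5 calls: it was reduced to -0.12 when the fit was adjusted for base composition and length of the gene model (adjusted p = 0.0498, and 0.0768 with the replicate number as a block), and it was not called without any one of the treated mice (log2 fold changes of -0.25, -0.27 and -0.24, adjusted p = 0.106, 0.0706 and 0.109). Without GalNAc-siNC mouse 2, the highest control, the change was -0.16 (adjusted p = 0.0483).

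Set against each other within each mouse, this pair varied less over the control mice than either gene alone. The ratio of Pck1 to Pcx, each in CPM per kb of gene model, was 6.15, 6.16 and 6.25 in the control mice. In the treated mice it was 10.2, 10.2 and 10.5. The mean ratio was 6.19 ± 0.06 (SD) and 10.3 ± 0.15, which is 1.66-fold higher in treated livers (exact two-sided permutation test, p = 0.1). This ratio, like the 4 other ratios given below, was chosen after the values were seen.

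The genes of the last step, which releases free glucose, both rose. G6pc (ENSMUSG00000078650), at chr11:101367561-101377903 on the plus strand with 5 exons, encodes the catalytic subunit of glucose-6-phosphatase. It was at 238, 210 and 220 CPM in control mice and at 336, 339 and 335 CPM in treated mice. No treated mouse was near the control range, and the treated mice lay much closer together than the control mice. G6pc rose from 223 ± 14.0 to 337 ± 1.84 CPM, a log2 fold change of 0.59 ± 0.06 (95% interval 0.47 to 0.72, adjusted p = 1.90e-06). Slc37a4 (ENSMUSG00000032114), at chr9:44396852-44402968 on the plus strand with 11 merged exons, encodes the glucose-6-phosphate transporter that feeds this enzyme. It was at 147, 155 and 151 CPM in control mice and at 215, 217 and 216 CPM in treated mice. Both groups were narrow and well apart. Slc37a4 rose from 151 ± 3.89 to 216 ± 0.69 CPM, a log2 fold change of 0.52 ± 0.06 (95% interval 0.40 to 0.64, adjusted p = 6.40e-06). The ratio of G6pc to Slc37a4 per kb was 1.92, 1.61 and 1.73 in control mice and 1.85, 1.85 and 1.83 in treated mice. These ranges overlapped, and a difference in the ratio was not shown (1.06-fold, exact two-sided permutation test, p = 0.4).

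Fbp1 (ENSMUSG00000069805), the fructose-bisphosphatase of liver at chr13:62864753-62888282 on the minus strand, did not pass the test. Its level was 753, 872 and 875 CPM in control mice and 943, 913 and 956 CPM in treated mice. The groups did not overlap, with GalNAc-siNC mouse 1 the lowest. The means were 833 ± 69.6 and 937 ± 21.9 CPM, and the log2 fold change was 0.17 ± 0.06 (95% interval 0.04 to 0.30, adjusted p = 0.0742). It was called by 3 of the 17 alternative fits. These were the fit with no filter on low counts (adjusted p = 0.0413), limma voom with quality weights for each library (0.0443) and the fit without GalNAc-siNC mouse 2 (0.0409). Without GalNAc-siNC mouse 1 the change was 0.10 (adjusted p = 0.0774), and with the adjustment for base composition and length it was 0.07 (adjusted p = 0.300). The ratio of G6pc to Fbp1 per kb was 0.223, 0.170 and 0.178 in control mice and 0.251, 0.261 and 0.247 in treated mice. Its mean was 1.34-fold higher with no overlap between groups (exact two-sided permutation test, p = 0.1).

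Sds (ENSMUSG00000029597) rose in every alternative fit, with a fold change close to that of G6pc. It encodes serine dehydratase, which turns serine into pyruvate, and lies at chr5:120476526-120483932 on the plus strand with 9 merged exons. Its level was 77.4, 92.0 and 91.0 CPM in control mice. In treated mice it was 139, 136 and 130 CPM. All treated mice were above all control mice, and the gap between the groups was wider than the range within either. Sds rose from 86.8 ± 8.16 to 135 ± 4.50 CPM, a log2 fold change of 0.64 ± 0.07 (95% interval 0.48 to 0.79, adjusted p = 1.02e-05). Whether strand was used in counting is not given in the sources used here, and Sds overlaps genes of the opposite strand, so its counts are uncertain to that extent. Plbd2 shares 360 bases with it and Gm15690 shares 141 bases. Plbd2 was at a log2 fold change of -0.20 (adjusted p = 0.0993), and Gm15690, with at most 183 counts in a library, at 0.42 (adjusted p = 0.0711). Sdsl, the related serine dehydratase-like gene, was not called (0.19 ± 0.12, adjusted p = 0.330). The ratio of Sds to Sdsl per kb was 8.26, 8.59 and 7.64 in control mice and 12.2, 10.5 and 10.7 in treated mice, 1.36-fold higher (exact two-sided permutation test, p = 0.1).

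**Figure D2:**
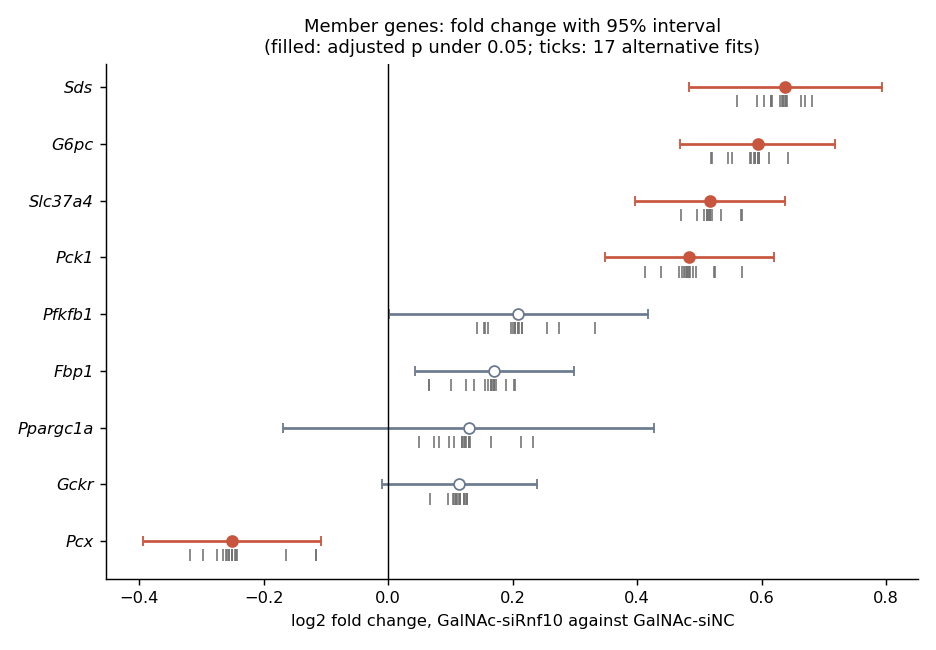
Log2 fold change of each of the 9 genes, GalNAc-siRnf10 against GalNAc-siNC livers, from edgeR (circle, filled where the adjusted p is under 0.05) with its 95% interval (line), and the values from 17 alternative fits (grey ticks). The ticks of Sds, G6pc, Slc37a4 and Pck1 all lie above 0.41, whereas the highest ticks of Pcx reach -0.12.

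**Figure D3:**
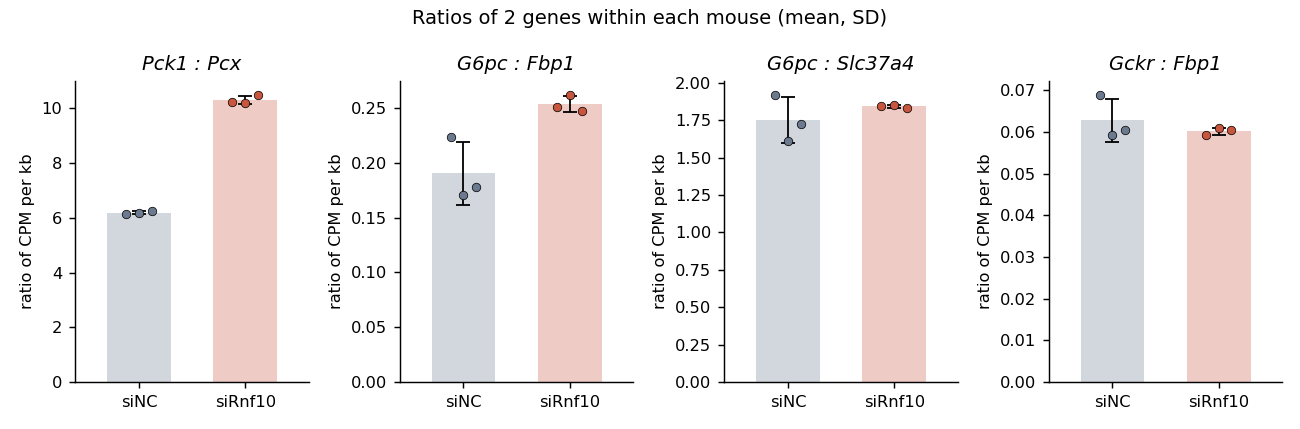
Ratio of the levels of 2 genes within each mouse, in CPM per kb over CPM per kb (vertical axes from 0), with points for mice and bars and error bars for the mean and SD of 3 mice. Pck1 to Pcx and G6pc to Fbp1 are higher in every treated mouse, while G6pc to Slc37a4 and Gckr to Fbp1 overlap between groups.

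Ppargc1a (ENSMUSG00000029167), the gene of the coactivator PGC-1α, was low and variable. It lies at chr5:51454250-51567726 on the minus strand. Its level was 7.34, 5.74 and 6.29 CPM in control mice and 6.21, 7.38 and 7.61 CPM in treated mice, from 163 to 250 counts per library. The groups overlapped, and the log2 fold change was 0.13 ± 0.14 (95% interval -0.17 to 0.43, adjusted p = 0.615). With a mouse left out the change was between 0.05 and 0.23, the latter without GalNAc-siNC mouse 1. None of the 17 alternative fits called it. Its relative Ppargc1b was at 4.69 ± 0.52 CPM in control and 4.60 ± 0.46 CPM in treated livers, and was not called either.

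The regulators around glucokinase were not called. Gckr (ENSMUSG00000059434), at chr5:31297443-31327314 on the plus strand, encodes the glucokinase regulatory protein. It was at 132, 131 and 135 CPM in control mice and at 142, 141 and 147 CPM in treated mice. The groups did not overlap, but the difference was small next to those of the called genes. The means were 133 ± 1.89 and 144 ± 3.02 CPM, and the log2 fold change was 0.11 ± 0.06 (95% interval -0.01 to 0.24, adjusted p = 0.230). None of the 17 alternative fits called Gckr. Its ratio to Fbp1 per kb overlapped between the groups (0.960-fold, exact two-sided permutation test, p = 0.7).

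Pfkfb1 (ENSMUSG00000025271), at chrX:150588229-150643878 on the plus strand, encodes the liver form of the enzyme that makes and breaks fructose 2,6-bisphosphate, an inhibitor of fructose-bisphosphatase. Its level was 33.5, 26.7 and 26.3 CPM in control mice and 31.2, 35.8 and 33.1 CPM in treated mice. The groups overlapped only through GalNAc-siNC mouse 1. The log2 fold change was 0.21 ± 0.10 (95% interval 0.001 to 0.42, adjusted p = 0.185), and without that mouse it was 0.33 and was called (adjusted p = 0.00250). It was also called by limma voom, which here weighted each library by its quality (0.27, adjusted p = 0.0328). Apex2 of the opposite strand shares 123 bases with Pfkfb1 and was not called (adjusted p = 0.381).

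The other 3 genes of the Pfkfb family all passed the test. Pfkfb3 was at 14.8, 13.8 and 13.1 CPM in control mice and at 69.8, 74.4 and 76.7 CPM in treated mice. It rose by 2.40 ± 0.08 on the log2 scale (adjusted p = 3.44e-12), which was the largest change among the 10 tested paralogues of the 9 genes. Pfkfb2 rose by 0.84 ± 0.12 (adjusted p = 0.000139), and Pfkfb4, with 16 to 70 counts per library, fell by 1.23 on the log2 scale (adjusted p = 0.00783). Per kb of gene model, Pfkfb1 made up 71.8%, 68.4% and 66.4% of the family's summed level in control mice and 41.0%, 42.9% and 40.9% in treated mice. Pfkfb3 made up 16.8%, 18.8% and 17.6% in control mice and 48.8%, 47.3% and 50.4% in treated mice. The summed level of the 4 genes was 10.4 ± 1.06 CPM per kb in control and 19.96 ± 0.94 CPM per kb in treated livers. The level of Pfkfb1 itself was 7.18 ± 1.01 and 8.30 ± 0.58 CPM per kb, so that the difference in the sum lay mostly in Pfkfb3.

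**Figure D4:**
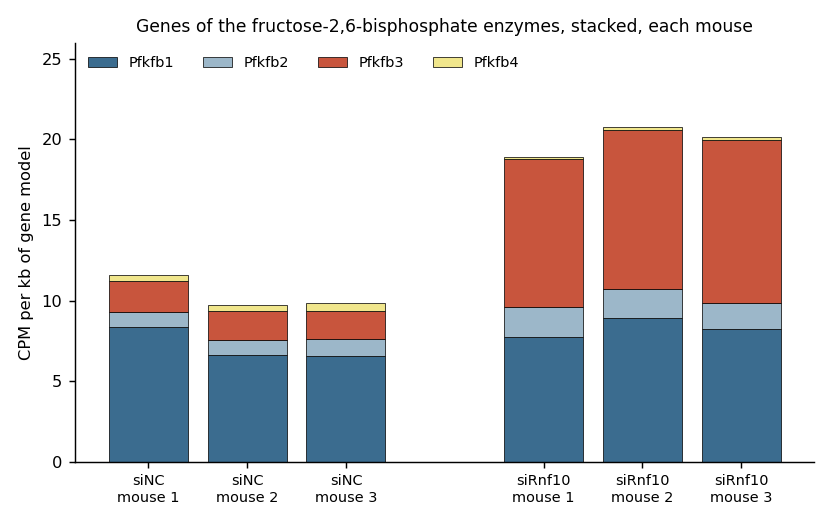
Levels of Pfkfb1, Pfkfb2, Pfkfb3 and Pfkfb4 in CPM per kb of gene model, stacked for each of the 6 mice. The Pfkfb1 segment is between 6.54 and 8.91 CPM per kb in all mice, while the Pfkfb3 segment is near 1.84 in control and near 9.74 CPM per kb in treated livers.

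Levels between genes were compared per kb of gene model. In control livers the order was Pck1 at 704, Fbp1 at 489, Pcx at 114, G6pc at 92.4, Slc37a4 at 52.8, Sds at 51.2, Gckr at 30.6, Pfkfb1 at 7.18 and Ppargc1a at 0.979 CPM per kb. Each neighbour in that order was separated from the next in all 3 mice, except Slc37a4 and Sds, whose ranges overlapped. In treated livers Pcx was at most 97.5 and G6pc at least 139 CPM per kb, so the order of these 2 genes was exchanged. Slc37a4 at 75.6 and Sds at 79.7 CPM per kb still overlapped. Pck1 ranked 70 among all tested genes in control and 57 in treated livers by this measure, whereas Ppargc1a ranked 9698 and 9401.

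The remaining paralogues gave low levels. Slc37a1, a gene of the same transporter family as Slc37a4, fell from 14.6 ± 1.14 to 7.61 ± 0.59 CPM (-0.94 ± 0.12, adjusted p = 2.23e-05), in the direction opposite to Slc37a4. Slc37a3 of that family, at 26.7 ± 1.33 and 25.1 ± 1.66 CPM, was not called (-0.09, adjusted p = 0.543), nor was Slc37a2 (0.14, adjusted p = 0.803). Pck2, the mitochondrial counterpart of Pck1, was at 4.09 ± 0.83 and 3.09 ± 0.51 CPM and was not called (adjusted p = 0.207). G6pc3, the ubiquitous glucose-6-phosphatase, was at 5.45 ± 0.20 and 4.53 ± 0.81 CPM and was not called (adjusted p = 0.303). G6pc2 and Fbp2 had at most 10 counts in any library and were not tested. Of the 10 paralogues tested, 2 were called higher and 2 lower, beside 14.0% of all tested genes called. Their median log2 fold change was -0.06.

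The enzymes shared by glycolysis and gluconeogenesis were listed together with the malate dehydrogenases Mdh1 and Mdh2, which are not enzymes of glycolysis. The genes of this list were higher where they changed. Of 12 genes tested, 6 rose, Mdh1 and Mdh2 among them, none fell and 6 were not called, beside 14.0% of all tested genes called. Their median log2 fold change was 0.24, beside 0.0022 over all genes. Aldoa, an aldolase, rose from 65.0 ± 4.15 to 86.9 ± 2.17 CPM (0.42 ± 0.07, adjusted p = 0.000449). Mdh1 rose by 0.27, Pgk1 by 0.25 and Eno1 by 0.29 on the log2 scale. Another list held genes of glycolysis, of glucose entry and of related steps, pyruvate dehydrogenase and its kinases among them. Of its 17 tested genes, 2 rose and none fell, near the 14.0% called over all tested genes. Their median was 0.05. Slc2a2, the glucose transporter of hepatocytes, rose from 321 ± 23.1 to 379 ± 6.64 CPM (0.24 ± 0.06, adjusted p = 0.0114), and Pdhb, of pyruvate dehydrogenase, rose by 0.23. Neither was called when any one of the treated mice was left out. Pklr, the liver pyruvate kinase that works against Pcx and Pck1, was at 181 ± 8.40 and 160 ± 2.32 CPM (-0.18 ± 0.06, adjusted p = 0.0504).

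Genes that supply substrates held larger single changes than the 9 genes themselves. Of 22 tested, 6 rose and 2 fell, beside 14.0% of all tested genes called, with a median log2 fold change of 0.12. Tat, which starts tyrosine breakdown, was at 820, 824 and 769 CPM in control mice and at 2149, 2150 and 2110 CPM in treated mice (1.41 ± 0.05, adjusted p = 6.13e-12). Got1, the cytosolic aspartate aminotransferase, was at 140, 162 and 148 CPM in control mice and at 348, 348 and 348 CPM in treated mice (1.22 ± 0.06, adjusted p = 7.62e-10). The amino acid transporter gene Slc38a2 rose from 146 ± 13.9 to 286 ± 9.09 CPM (0.97 ± 0.07, adjusted p = 2.97e-08). The alanine aminotransferase gene Gpt2 rose by 0.31. The genes that fell belong to lactate and glycerol: Ldha, lactate dehydrogenase A, from 978 ± 51.6 to 687 ± 3.34 CPM (-0.51 ± 0.05, adjusted p = 3.70e-06), and Gpd1, cytosolic glycerol-3-phosphate dehydrogenase, from 339 ± 33.6 to 265 ± 2.49 CPM (-0.36 ± 0.07, adjusted p = 0.00130).

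Transcription regulators of the pathway changed in both directions. Of 25 tested, 5 rose and 3 fell, beside 14.0% of all tested genes called, with a median log2 fold change of -0.09. Without GalNAc-siNC mouse 1 the number called was 14, while the calls over all genes increased from 1965 to 2864. Klf15, a glucocorticoid-induced factor of amino acid breakdown, rose from 120 ± 12.8 to 205 ± 5.40 CPM (0.78 ± 0.07, adjusted p = 9.60e-07). Foxo1, the insulin-restrained activator of G6pc and Pck1, rose from 33.7 ± 3.07 to 50.04 ± 1.97 CPM (0.57 ± 0.08, adjusted p = 0.000110). Nr0b2, a repressor of nuclear receptors, rose by 0.81, whereas the forkhead genes Foxa1 and Foxa2 fell by 0.81 and 0.53 on the log2 scale. Of 17 genes of hormone input, 3 rose and none fell, near the 14.0% called over all tested genes, with a median of -0.06. The number called was between 1 and 10 when a mouse was left out, the 10 without GalNAc-siNC mouse 1. Igfbp1, a secreted IGF-binding protein whose gene is repressed by insulin, was at 10.3, 9.49 and 11.2 CPM in control mice and at 41.9, 45.2 and 46.6 CPM in treated mice (2.11 ± 0.09, adjusted p = 6.46e-11). Sik1, a kinase induced by cAMP, rose by 0.34 (adjusted p = 0.0179), a call not kept at an adjusted p under 0.01. Only 1 of the 17 genes was called without GalNAc-siNC mouse 3, and likewise without GalNAc-siRnf10 mouse 1 or 2.

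Because hepatic glucose output follows the day, 15 clock genes were read as well. Of 14 tested, 5 rose and 1 fell, beside 14.0% of all tested genes called. Per1, a core clock gene, was at 11.2, 12.4 and 11.9 CPM in control mice and at 41.3, 37.2 and 39.9 CPM in treated mice (1.74 ± 0.09, adjusted p = 6.64e-10), and Nr1d1, a clock repressor, fell from 56.3 ± 5.18 to 35.2 ± 1.61 CPM (-0.68 ± 0.08, adjusted p = 1.78e-05). Per2 rose by 0.42, Ciart by 1.29 and Cry1 by 0.75 on the log2 scale. The 6 called clock genes differed between the same groups of mice as the called genes of the pathway, and their part in the values of Pck1, G6pc, Slc37a4, Sds and Pcx was not tested. Among markers of the other liver cells, 0 of 8 Kupffer cell genes, 2 of 8 sinusoidal endothelial genes and 4 of 8 stellate cell genes were called. In the lower direction, 1 of 5 cholangiocyte genes (Spp1, -0.90) was called. The first-listed markers Clec4f, Stab2, Lrat and Epcam were not called. These marker counts, too, stand beside 14.0% of all tested genes called. The summed levels of these marker lists in control and treated livers were 180 to 207 and 189 to 200 CPM for Kupffer cells. They were 93.4 to 97.1 and 105 to 109 CPM for endothelial cells, and 129 to 131 and 150 to 154 CPM for stellate cells. For cholangiocytes they were 68.7 to 70.1 and 37.8 to 38.9 CPM. Spp1, at 61.9 ± 1.54 and 33.1 ± 0.36 CPM, carried the cholangiocyte sum, while Krt19 and Krt7 were not called. In the stellate list Dcn, Reln, Colec11 and Ecm1 rose, and Lrat, Des, Pdgfrb and Col1a1 had log2 fold changes of -0.27, -0.20, -0.25 and -0.26 and were not called. Of the pancreas markers, Cela1 was called higher, their sum was 15.9 to 23.6 and 29.4 to 31.6 CPM, and the 6 genes that were not tested, Cpa1 at 0 among them, had at most 2 counts.

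**Figure D5:**
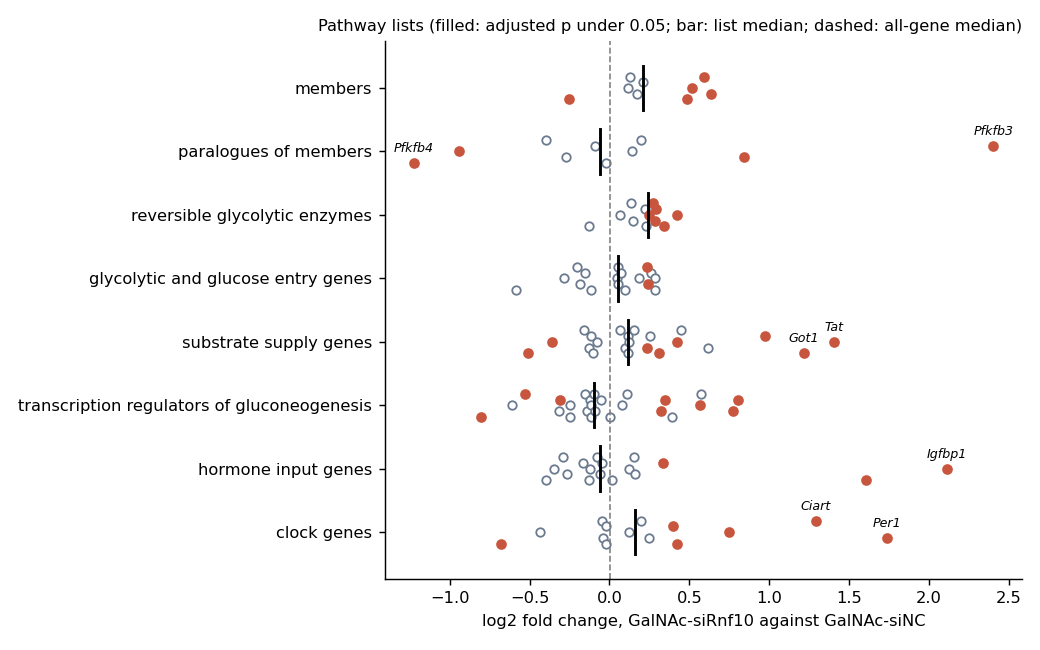
Log2 fold change, GalNAc-siRnf10 against GalNAc-siNC livers, of every tested gene in the 9-gene group and in 7 lists of related genes; filled points have an adjusted p under 0.05, short bars are list medians and the dashed line is the median of all tested genes, at 0.0022. Called genes of the list of reversible glycolytic enzymes, which also holds Mdh1 and Mdh2, all lie to the right. The transcription regulators, the paralogues and the substrate supply genes have called points on both sides.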

How the data were processed

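Livers of 6 mice were measured by stranded mRNA sequencing, 1 library per mouse, from 1 µg of RNA with paired reads of 150 bp. The authors mapped reads to GRCm38 (mm10) with HISAT2 and deposited raw counts per Ensembl gene with a gene length; the counting tool, annotation and strand setting are not given in the sources used here. Symbols and gene models were taken from GENCODE M21, and 99.0% of 55227 compared models had the deposited length; 346 identifiers had no symbol, and of 2 named Aldoa the older was used. From the counts, genes were filtered with filterByExpr, scaled by TMM and tested with the quasi-likelihood F-test (robust) of edgeR 4.0.16 in R 4.3.3, treatment only, with Benjamini-Hochberg adjustment over 14046 genes and calls at 0.05. CPM are TMM-scaled; ± after a log2 fold change is the SE. The common dispersion was 0.00861. Single values and ratios were compared by exact permutation tests (scipy 1.17.1).

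Named were the 9 genes, Rnf10, paralogues, up to 5 called genes of each pathway list by smallest p, nearest genes in pattern and first markers. Pklr, Gpd1, Lrp2, Spp1, Cela1 and overlapping neighbours were named after their values were seen. Members and lists were chosen with earlier results of these data known. Glucokinase itself is not analysed here, and some genes counted in the lists are not reported by name. Alternatives were RLE, upper quartile or no scaling factors, other filters, DESeq2 1.42.0, and limma 3.58.1 voom with quality weights for each library. Further ones were a replicate block, the 20 most abundant genes left out, a stricter threshold and each mouse left out. A correction for GC content and length (splines with 5 degrees of freedom) was added after seeing the data. The edgeR p-values set the group difference against the variation between libraries of the same group. The dispersion of a gene was the same for both groups and was shared in part over all tested genes.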

Additional observations from a re-analysis of the deposited data

How the results depend on the processing

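The rises of Pck1, G6pc, Slc37a4 and Sds kept their direction and their call in all 17 alternatives, with largest adjusted p of 0.00181, 0.000142, 0.000407 and 0.000436. Over the 9 genes, 144 of 153 values kept side and direction, 4 lost a call (all Pcx), 5 gained one (Fbp1 and Pfkfb1) and 0 reversed. The number of the 9 genes called was 4 to 7 over all alternatives and 4 to 6 when a mouse was left out. Over all genes, 1965 were called, 1042 at an adjusted p under 0.01, and 1053 to 2864 when a mouse was left out. The number was 1053 without GalNAc-siRnf10 mouse 1 and 1128 without mouse 2 or 3 of that group. It was 2864, 1633 and 1900 without GalNAc-siNC mouse 1, 2 and 3. The cause of these differences was not tested. The mice share numbers between groups but are different animals, and same-numbered mice did not deviate together (correlations -0.000993, 0.0272 and -0.0337). With the replicate number as a block, 1816 genes and 5 of the 9 were called. Library totals alone moved the median of all genes to -0.05. Ppargc1a had 163 to 250 and Pfkfb4 16 to 70 counts per library; intervals at such counts are wide.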

Other observations

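The control mice varied more than the treated mice in 8 of the 9 genes, and in 66.1% of all tested genes, with GalNAc-siNC mouse 1 apart from its group. Without that mouse the numbers were 4 of 9 and 51.4%. These compare fewer control mice with 3 treated mice, so they cannot be set directly beside 8 of 9 and 66.1%. The coefficient of variation over 3 mice was 10.7% and 1.33% for Pck1, 10.9% and 1.72% for Pcx, 8.36% and 2.33% for Fbp1, 6.29% and 0.547% for G6pc, and 2.58% and 0.320% for Slc37a4, in GalNAc-siNC and GalNAc-siRnf10 livers. Gckr was the exception, with 1.43% and 2.11%.

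Over the 6 libraries, the pattern of each gene was compared with that of 10944 other genes by the root mean square difference of centred log2 CPM. Nearest to Pck1 were Angptl4 (0.0373), a secreted inhibitor of lipoprotein lipase, Pim3 (0.0413), a protein kinase, and Esam (0.0443), an adhesion molecule that was itself not called (adjusted p = 0.123). Nearest to G6pc were Cyp2c50 (0.0167), a cytochrome P450, Elovl6 (0.0199), a fatty acid elongase, and Fmo5 (0.0245), a flavin monooxygenase. Slc37a4 ranked 32 from Pck1 and 63 from G6pc, while G6pc ranked 609 from Pck1 and Pcx 8354. In GalNAc-siNC mouse 1, Pck1 was the lowest and G6pc the highest of the control mice.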
